A study of Mus musculus with 4 samples.

Results

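The regions described here are H3K36me2 peaks that overlap no protein-coding gene but lie within 2 kb of an end of one. They were taken from the peak lists of a melatonin-treated and an untreated culture, by comparing each peak with the protein-coding gene bodies of the RefSeq gene table for the mouse genome build GRCm38. Of 16060 peaks in all, 246 met the rule. In the melatonin list 124 of 7699 peaks did so (1.61%; 1.35 to 1.92%, a 95% Wilson interval like those of the other shares given here). Among the untreated peaks 122 of 8361 did (1.46%, 1.22 to 1.74%). The intervals of the shares overlap.

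The study mapped H3K36me2 by chromatin immunoprecipitation and sequencing in cultured mouse MSCs (mesenchymal stem cells of the bone marrow), the stromal cells that can form bone, fat and cartilage. One culture received 1 µM melatonin, the hormone of the pineal gland, for 24 hours, and the other was untreated; the labels give no age, sex or number of mice for either, although the series' design text speaks of old donors and of several age groups. All cultures were grown in DMEM with serum. Each condition had 1 antibody library and 1 input library without antibody, made by tagmentation, so no difference below has a replicate check, no test between conditions was possible, and every interval covers counting error only. Peak calls carry no expression level, so the labelled cell type could not be compared with its markers.

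H3K36me2 is the dimethylated form of lysine 36 of histone H3. It is written by enzymes of the NSD family, among them NSD2, and by ASH1L, and it is removed by KDM2 demethylases, which are recruited to unmethylated CpG islands through a CXXC domain. The mark is known for covering broad stretches of intergenic and intronic chromatin, and start sites of active genes usually carry little of it.

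The first question was how close these peaks come to a start site, and the sequence that a peak reached gives one view of it. RefSeq promoter windows (250 bases before a start site and 50 after it) were known for 17274 genes. A gene-end peak reached into 2 such windows in the melatonin list, those of Mmp8 and Lrmda, and into 1 in the untreated list, that of 2210010C04Rik. Counting every peak of a list, 13 windows (0.0753%) met a melatonin peak and 10 (0.0579%) an untreated one. The start site of a window can lie inside the gene's outer end, by 208 bp at Lrmda. Upstream peaks 93 bp from Cdc25b (untreated) and 99 bp from Ptprc (melatonin) met none of the windows. These counts are therefore of windows and not of all peaks close to a 5′ end. The bases in front of the start site (RefSeq, GRCm38.p6) are printed 5′ to 3′ for Mmp8, which encodes neutrophil collagenase (chr9:7558179-7558428, plus strand), and for 2210010C04Rik, a gene known by its clone name (chr6:41035510-41035759, minus strand). Capitals mark the bases inside the peak.
Mmp8: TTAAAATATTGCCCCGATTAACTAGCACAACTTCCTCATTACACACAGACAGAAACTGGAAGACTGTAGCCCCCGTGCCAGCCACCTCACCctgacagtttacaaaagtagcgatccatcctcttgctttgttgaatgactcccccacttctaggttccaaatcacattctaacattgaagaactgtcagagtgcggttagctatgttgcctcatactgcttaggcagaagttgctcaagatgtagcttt
2210010C04Rik: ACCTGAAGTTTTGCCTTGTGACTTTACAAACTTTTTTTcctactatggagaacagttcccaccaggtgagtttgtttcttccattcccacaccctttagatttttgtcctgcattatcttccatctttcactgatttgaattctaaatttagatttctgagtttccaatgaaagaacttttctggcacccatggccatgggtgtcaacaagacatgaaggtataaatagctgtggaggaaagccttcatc

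The melatonin peak covered the outermost 91 bases of the Mmp8 sequence and stopped 160 bp short of the gene. The untreated peak covered the outermost 38 bases at 2210010C04Rik and stopped 213 bp short. Both promoters are CpG-poor, a class defined here as the windows that do not reach both a GC content of 55% and an observed-to-expected CpG ratio of 0.6. The Mmp8 stretch holds 4 CG pairs and the other holds 0.

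The next set of sequences belongs to the genes with an upstream peak at the same place in both lists. They are shown to place these peaks beside promoters of both kinds: Atp6v1f and Slc35f5 are CpG-rich, and Selenom and Prl3d1 are CpG-poor. The stretches are chr6:29467533-29467782, chr1:125560345-125560594, chr11:3514434-3514683 and chr13:27093939-27094188, all on the plus strand of GRCm38.p6. Capitals mark CG pairs; no peak reached these bases.
Atp6v1f: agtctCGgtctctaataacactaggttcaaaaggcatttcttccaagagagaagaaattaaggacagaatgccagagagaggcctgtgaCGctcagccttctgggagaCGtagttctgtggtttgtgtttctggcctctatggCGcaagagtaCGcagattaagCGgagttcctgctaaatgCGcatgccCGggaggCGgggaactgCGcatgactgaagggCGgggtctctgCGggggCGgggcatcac
Slc35f5: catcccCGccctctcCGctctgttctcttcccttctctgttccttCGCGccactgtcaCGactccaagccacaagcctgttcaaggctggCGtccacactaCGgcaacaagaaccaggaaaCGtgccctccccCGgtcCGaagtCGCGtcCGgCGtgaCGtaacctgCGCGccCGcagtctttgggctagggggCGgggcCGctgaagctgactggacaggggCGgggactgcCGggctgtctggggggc
Selenom: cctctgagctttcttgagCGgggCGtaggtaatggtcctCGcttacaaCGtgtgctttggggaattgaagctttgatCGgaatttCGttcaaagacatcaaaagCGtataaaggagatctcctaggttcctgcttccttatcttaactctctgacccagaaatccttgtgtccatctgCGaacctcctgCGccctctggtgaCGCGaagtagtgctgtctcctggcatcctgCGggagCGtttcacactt
Prl3d1: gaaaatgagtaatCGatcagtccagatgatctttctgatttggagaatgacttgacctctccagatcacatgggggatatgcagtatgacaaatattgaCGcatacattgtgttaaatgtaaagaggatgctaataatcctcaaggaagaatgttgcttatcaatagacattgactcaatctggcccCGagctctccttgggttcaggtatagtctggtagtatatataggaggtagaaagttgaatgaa

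The 250 bases hold 13 CG pairs at Atp6v1f, 22 at Slc35f5, 13 at Selenom and 3 at Prl3d1. Atp6v1f and Selenom thus differ in class at equal numbers of CG pairs, with a GC content of 54.4% and 50.4% in these bases. The class itself is set on the whole promoter window. Among all 121 genes with an upstream peak in either list and a known promoter, 50 promoters (41.3%, 32.9 to 50.2%) were CpG-rich, against 7218 of 17274 (41.8%) of all promoters. By list, upstream peaks gave 23 of 60 with melatonin (38.3%, 27.1 to 51%) and 29 of 65 without (44.6%, 33.2 to 56.7%). The 68 genes with a downstream peak had 17 CpG-rich promoters (25%, 16.2 to 36.4%): 7 of 37 in the melatonin list (18.9%, 9.48 to 34.2%) and 10 of 31 in the untreated list (32.3%, 18.6 to 49.9%). The median GC content of the promoter window was 54.7% for genes with an upstream peak, 52.0% for genes with a downstream peak and 56.3% for all genes. The pooled and the melatonin interval of the downstream peaks lie below the share of all promoters, and the untreated one includes it. For genes with an upstream peak no difference was detectable at these counts.

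Short motifs in these promoters were counted on both strands. The letters TATAAA stood in 16 of the 121 promoters (13.2%, 8.31 to 20.4%) against 13.4% of all promoters. CCAAT stood in 43.8% (35.3 to 52.7%) against 39.6%, and GGGCGG also in 43.8% against 46.9%. The E-box CACGTG was found in 5.79% (2.83 to 11.5%) against 8.01%. TGACTCA, the letters bound by AP-1 factors, stood in 10 promoters (8.26%, 4.55 to 14.5%) against 4.60%, and TGTGGT, the core of RUNX sites, in 16.5% (11.0 to 24.2%) against 14.8%. Each of the 6 intervals contains the share over all promoters. None of the motifs contains another.

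Peaks became more frequent with distance from the 5′ end of a gene, and they did so in both lists. Peak midpoints were counted per megabase of sequence at each distance from the nearest end of a protein-coding gene, with overlapping genes merged. The 5′ and 3′ ends were told apart after the values were seen. Since no peak is narrower than 1000 bp, a midpoint within 0.5 kb of an end belongs to a peak that also touches the gene, and the gene-end peaks have their midpoints from 0.5 kb outwards. Outside 5′ ends, the melatonin list held 0.556 peaks per Mb in the first 0.5 kb (4 peaks), 0.878 from 0.5 to 1 kb, 1.83 from 1 to 1.5 kb, 2.53 from 1.5 to 2 kb and 3.92 from 2 to 2.5 kb (24 peaks). The untreated list held 0.556, 1.02, 1.22, 3.79 and 3.92 peaks per Mb over the same steps. Beyond that the density changed little: from 5 to 10 kb it was 4.34 in the melatonin and 3.91 in the untreated list. The density from 1.5 to 2.5 kb was 4.51 times that of the first kb in the melatonin list (exact 95% interval 2.22 to 10.1) and 4.92 times in the untreated list (2.52 to 10.5).

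Outside 3′ ends a rise over this distance was within counting error, and the difference in rise between 5′ and 3′ ends was not tested. From 1.5 to 2.5 kb the melatonin list held 1.55 peaks per Mb there and the untreated list 1.64, which is 1.36 times (0.657 to 2.86) and 1.77 times (0.831 to 3.91) the density of the first kb. Farther out, peaks were more frequent outside 3′ ends too. The melatonin list held 1.14 per Mb (0.651 to 1.85) in the first kb and 2.52 (2.15 to 2.95) from 2.5 to 10 kb. The untreated list held 0.925 (0.492 to 1.58) and 2.30 (1.94 to 2.71). A lower density near the gene is thus not particular to 5′ ends. Over the zone that holds nearly all gene-end midpoints, 0.5 to 2.5 kb, 5′ ends had 58 melatonin peaks in 25.9 Mb and 3′ ends 34 in 24.6 Mb, a ratio of densities of 1.62 (1.05 to 2.56). The untreated list had 63 and 32, a ratio of 1.88 (1.21 to 2.97). At the authors' thresholds the excess on the 5′ side was larger than counting error in each list; among peaks of at least 6-fold it was 2.57 (1.21 to 5.95) with melatonin, and without it 2.02 (0.828 to 5.42), an interval that includes 1. Between 2.5 and 10 kb the ratio was 1.62 (1.33 to 1.98) and 1.76 (1.44 to 2.16). Among peaks of at least 6-fold it was 1.30 (0.904 to 1.87) with melatonin, which includes 1, and 1.82 (1.17 to 2.90) without.

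**Figure D1:**
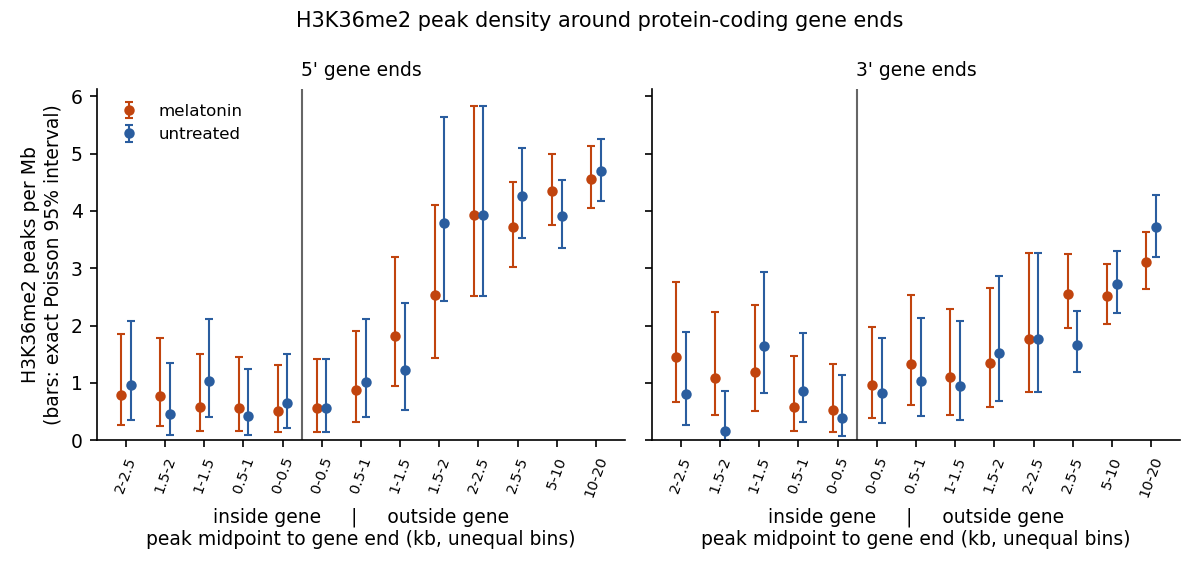
Peaks per megabase (vertical axis) by distance of the peak midpoint from the nearest 5′ end (left panel) or 3′ end (right panel) of a protein-coding gene, in kb with unequal bins; the vertical line is the gene end, and bars are exact Poisson 95% intervals. Outside 5′ ends both lists climb from 0.556 peaks per Mb to 3.92 within 2.5 kb, while inside those 5′ ends they stay near 1 or below.

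On the inner side of the 5′ end the mark was called far less often than at the same distance outside. Between 1.5 and 2.5 kb, the outside density was 4.12 times (2.02 to 9.23) the inside one in the melatonin list and 5.49 times (2.66 to 12.7) in the untreated list. At 3′ ends that ratio was 1.23 (0.590 to 2.57) with melatonin and 3.45 (1.32 to 10.5) without.

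The 5′ ends were also divided by the CpG class of their promoter, again after the values were seen. At CpG-rich 5′ ends, the first 0.5 kb outside held 0 melatonin peaks, which allows a density of up to 1.32 per Mb, and 1 untreated peak. CpG-poor ends held 4 (0.908 per Mb) and 3 (0.681 per Mb) there. Over the first kb the CpG-poor density was 1.46 times (0.334 to 8.78) and 1.67 times (0.402 to 9.79) the CpG-rich one, so the classes did not differ beyond counting error so close to the gene. From 2.5 to 10 kb, the surroundings of CpG-rich ends had more peaks than those of CpG-poor ends: 5.76 per Mb against 3.07 in the melatonin list and 5.11 against 3.38 in the untreated list. The CpG-poor density was 0.532 times (0.420 to 0.673) and 0.662 times (0.522 to 0.839) the CpG-rich one. Among peaks of at least 6-fold it was 0.495 times (0.308 to 0.789) with melatonin, and without it 0.772 times (0.460 to 1.31), an interval that includes 1. Within 0.5 to 2.5 kb the classes did not differ beyond counting error, at ratios of 1.09 (0.621 to 1.96) and 0.824 (0.487 to 1.41). The gene-end zone is thus where the higher density around CpG-rich ends was not detectable at these counts.

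**Figure D2:**
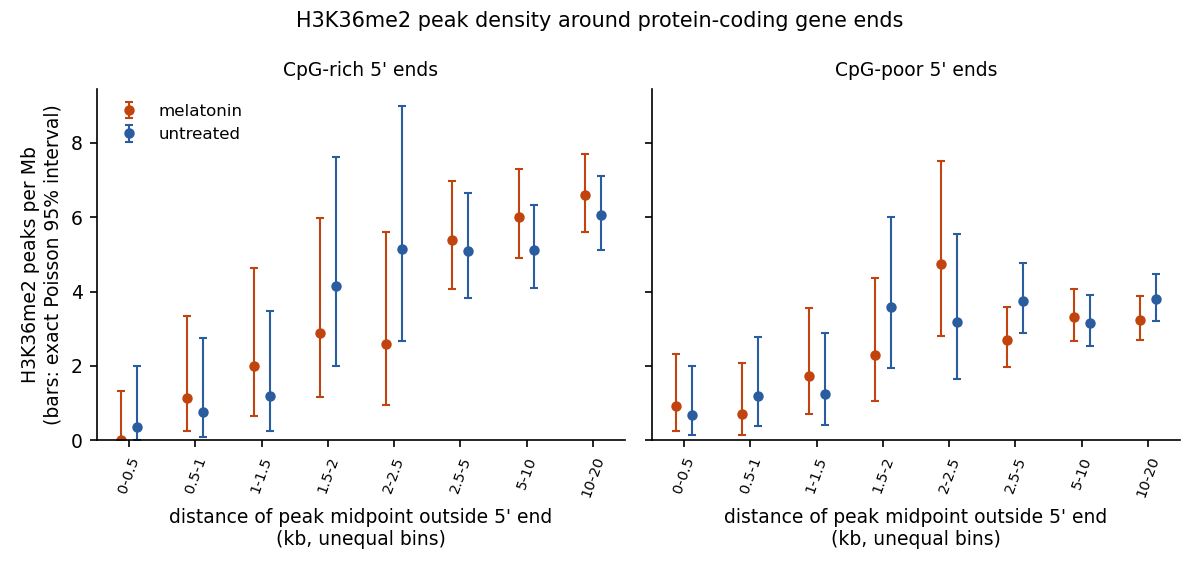
Peaks per megabase outside 5′ ends (vertical axis, exact Poisson 95% intervals) by distance in kb with unequal bins, for genes with a CpG-rich promoter (left) and a CpG-poor one (right). From 2.5 to 20 kb, the last bin drawn, the CpG-rich ends lie at or above 5 peaks per Mb and the CpG-poor ends below 4.

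Counting the gene-end peaks one by one gives the same tilt, on largely the same peaks as in the 0.5 to 2.5 kb zone. Of the 95 melatonin peaks whose nearest gene has a known strand, 60 lay upstream of it (63.2%, 53.1 to 72.2%) and 35 downstream. In the untreated list 64 of 94 lay upstream (68.1%, 58.1 to 76.6%) and 30 downstream. The upstream peaks thinned out towards the gene: with melatonin 6 had a gap under 0.5 kb between peak edge and gene, 15 from 0.5 to 1 kb, 13 from 1 to 1.5 kb and 26 from 1.5 to 2 kb. Without melatonin the numbers were 7, 11, 24 and 22. The median gap over all members was 1186 bp and 1311 bp.

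The peaks closest to a gene were few. In the melatonin list the nearest was 5 bp from Klrd1, which encodes the NK cell receptor CD94, followed by Ccl12 (11 bp), a monocyte chemoattractant, Lipk (24 bp), a lipase gene, Lrmda (38 bp) and P2ry1 (88 bp), a purinergic receptor for ADP. In the untreated list they were Srd5a2 (14 bp), a steroid 5-alpha-reductase, Rgs1 (57 bp), a regulator of G protein signalling, Cdc25b (93 bp), a cell cycle phosphatase, Slc7a11 (99 bp), the cystine/glutamate antiporter, and Clca4a (219 bp). No gene is among the nearest 5 of both lists. At the outer limit, the last melatonin peaks inside lay 1999 bp from Mcfd2, 1999 bp from Clec10a and 1995 bp from 2300009A05Rik, with folds over input of 8.35, 4.60 and 5.07; the first outside lay 2007 bp from Rabgap1l, 2017 bp from Olfr427 and 2027 bp from Snd1, with folds of 4.02, 4.35 and 5.80. In the untreated list the last inside were at Pabpc2 (1992 bp, 4.85-fold), Cav1 (1992 bp, 4.08-fold) and Ell2 (1963 bp, 5.41-fold), and the first outside at Rpf1 (2016 bp, 4.61-fold), Serpinb1c (2022 bp, 6.55-fold) and Slfn9 (2032 bp, 4.41-fold). The folds on the inner and the outer side of the limit overlapped.

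In height the gene-end peaks were ordinary members of their lists. The authors' normalized tag count, in ChIP tags per 10000000, had a median of 13.4 with melatonin (11.6 to 24.0) and 13.6 without (11.7 to 26.9), the same medians as over all peaks. The median enrichment over input, as the authors give it, was 5.435-fold against 5.11 over all melatonin peaks, and 4.975-fold against 4.87 over all untreated peaks. In 101 of 124 and 97 of 122 peaks the width was 1000 bp, the window of the peak finder. The widest lay beside Serpina3m, a serpin gene (1832 bp, 24.0 normalized tags, 7.39-fold), in the melatonin list, and beside Slc15a3, a peptide and histidine transporter (1958 bp, 26.9 normalized tags, 5.06-fold), in the untreated list. Next in width came Disp1 (1548 bp) and Agr2 (1508 bp) with melatonin and Adam24 (1672 bp) and Ufc1 (1650 bp) without.

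The highest folds came with few input tags, and only some of these peaks were tall. Beside Emp1, an epithelial membrane protein gene, the untreated peak had 13.3 normalized ChIP tags and 0.4 scaled input tags, giving 44.86-fold, the highest of all 246. Fancc, a Fanconi anaemia gene, and Slc7a11 had 12.9 normalized tags, 0.8 input tags and 21.79-fold each. Rab14, a small GTPase of endosomes, reached 17.94-fold and Dcn, which encodes the collagen-binding proteoglycan decorin, 15.06-fold. They had 15.9 and 17.8 normalized tags, where the upper quartile of the untreated gene-end peaks was 15.9. Tnfsf11, the osteoclast-inducing ligand RANKL, reached 11.86-fold at 1.6 input tags, with Sult6b2 (10.89), the RNA helicase gene Ddx52 (9.48), the syndecan gene Sdc2 (9.23) and Dnajc15 (8.46) after it. All 10 had at most 2 input tags, where the median untreated gene-end peak had 3.9.

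The highest folds of the melatonin list also came with few input tags. Of these peaks, those at Fmo4 (17.6 normalized tags) and Mmp8 (16.9) were above the upper quartile of 14.8. The peak upstream of the olfactory receptor gene Olfr427 had 12 normalized tags, 0.5 input tags and 29.56-fold. Fmo4, a flavin-containing monooxygenase gene, followed with 21.74-fold, then Rufy1 with 17.39, the chemokine gene Ccl9 with 16.52 and the tRNA methyltransferase gene Trdmt1 with 16.09, all at 1 input tag. Mmp27 (14.35), Rbbp9 (11.88), the dynein adaptor gene Bicd2 (10.43), Mmp8 (10.43) and the adhesion molecule gene Clmp (10.14) completed the 10 highest, with Plpp3 at the same 10.14. Their inputs ran from 0.5 to 2 tags, against a median of 3 over the melatonin gene-end peaks. A fold resting on so few input tags changes greatly with each further tag.

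**Figure D3:**
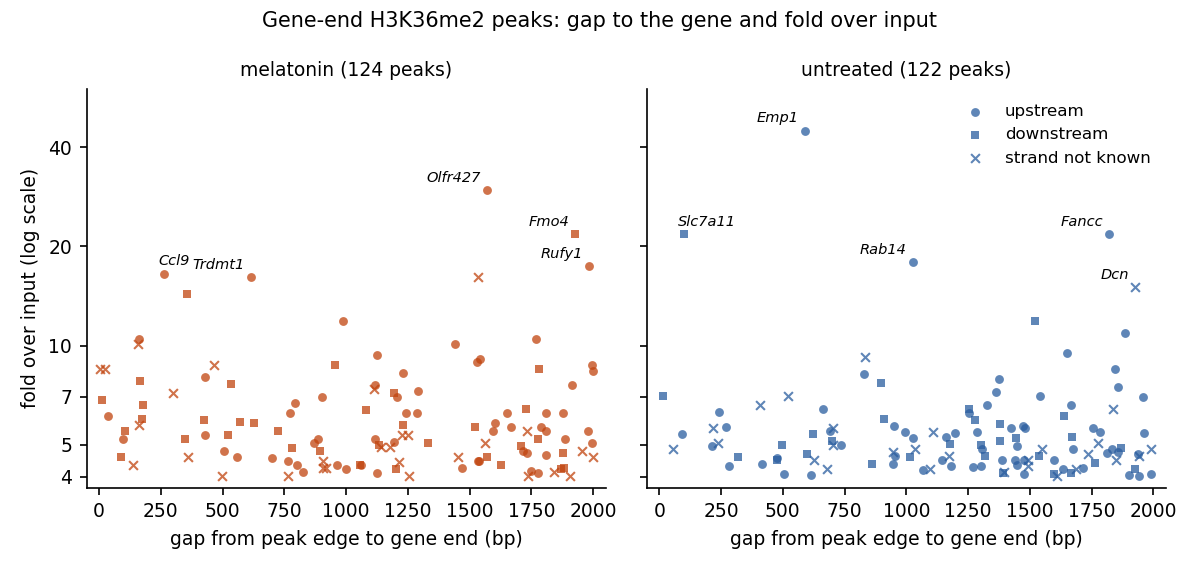
Fold over input (vertical log axis) against the gap from peak edge to gene end in bp, for the 124 melatonin and the 122 untreated gene-end peaks; circles are upstream, squares downstream, and crosses lie beside a gene without a known strand. Most peaks lie between 4-fold and 10-fold at any gap, and Emp1 stands highest at 44.86-fold.

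Few of these peaks were found in both cultures. Of the 124 melatonin peaks 6 overlapped an untreated peak by at least 1 bp (4.84%, 2.24 to 10.2%), where 6.12% of all melatonin peaks did so. Of the 122 untreated peaks 6 overlapped a melatonin peak (4.92%, 2.27 to 10.3%), against 5.6% of all untreated peaks. The shares are close to those backgrounds, and their intervals include them. The partner was a gene-end peak of the other list in all 6 pairs.

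At Dcn, 1840 bp from the gene, the melatonin peak (chr10:97476660-97477660) had 13.4 normalized tags and 4.0 input tags (4.13-fold), and the untreated peak, overlapping it by 914 bp, had 17.8 and 1.6 (15.06-fold). The fold differed more than the tag count did, and the input was lower in the untreated culture. Atp6v1f, a subunit of the vacuolar proton pump, had 13 normalized tags with melatonin (5.36-fold) and 15.5 without (5.25-fold), with 402 bp in common. Slc35f5, a solute carrier gene, had 12.7 (4.47-fold) and 14.8 (6.25-fold), with 715 bp in common. Selenom, which encodes a selenoprotein of the endoplasmic reticulum, had 16.6 (4.09-fold) and 14.4 (4.06-fold), and the untreated peak lay wholly inside the other. Lipk had 13.8 (8.48-fold) and 13.3 (4.98-fold), with 321 bp in common. Prl3d1, which encodes placental lactogen I, had 12.7 (5.22-fold) and 17.8 (5.48-fold), with 599 bp in common. The normalized tags were thus higher without melatonin at 4 of the 6 pairs and higher with melatonin at Selenom and Lipk.

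**Figure D4:**
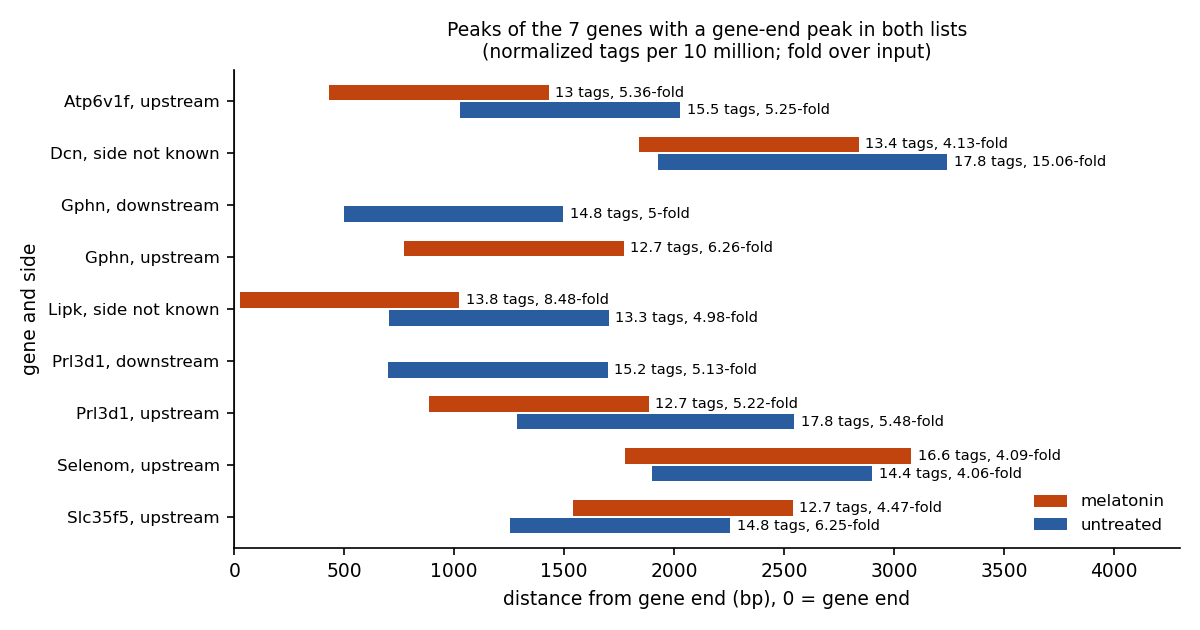
Extent of each gene-end peak (bars, distance from the gene end in bp on the horizontal axis) for the 7 genes with such a peak in both lists, by gene and side, with normalized tags per 10000000 and fold over input beside each bar. At 6 genes the bars overlap, and at Gphn they lie at opposite ends of the gene.

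A gene-end peak marked 125 genes in the melatonin list (0.578% of the 21631 protein-coding genes compared) and 123 in the untreated list (0.569%). In both lists there were 7 genes, the 6 above and Gphn. They made up 5.60% (2.74 to 11.1%) of the former and 5.69% (2.78 to 11.3%) of the latter. Both intervals lie above the 0.569% and 0.578% of all genes with a gene-end peak in the other list. As 6 of the 7 genes are those of the overlapping pairs, this largely restates the overlap between the lists. That overlap was near the share over all peaks. Gphn encodes gephyrin, the scaffold of inhibitory synapses, and had its melatonin peak 771 bp upstream (12.7 normalized tags, 6.26-fold) and its untreated peak 497 bp downstream (14.8, 5-fold). Prl3d1 carried 3 gene-end peaks, the most of any named gene, because the untreated list also had one 698 bp downstream (15.2 normalized tags, 5.13-fold). Aph1b, a gamma-secretase subunit gene, had untreated peaks at both ends, 1300 bp upstream (14.0 normalized tags, 4.31-fold) and 1636 bp downstream (14.4, 6.09-fold), and no melatonin peak beside it.

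A few peaks lay within 2 kb of a pair of genes, mostly between them. With melatonin these were the peak 5 bp from Klrd1 and 1259 bp from Klre1, neighbouring NK receptor genes, and the one between Gm6657 and Gphn. Without melatonin they were the peak before Zc3h11a and Zbed6 (1375 and 1889 bp), the one between Lefty1, a Nodal inhibitor gene, and Tmem63a (1461 and 1424 bp), and the one between Psmb8, an immunoproteasome subunit, and Tap2, a peptide transporter of antigen presentation (1347 and 678 bp). All 5 stood between 4.23-fold and 8.48-fold.

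The nearest peak of the other culture lay farther away in the median than for peaks in general. That median distance was 48.1 kb for melatonin gene-end peaks against 24.5 kb over all melatonin peaks, and 54.2 kb against 25.6 kb for the untreated ones. A peak of the other list lay within 10 kb for 23.4% (16.8 to 31.6%) and 18% (12.2 to 25.8%) of them, against 30.8% and 29.2% over all peaks; the melatonin interval includes its share over all peaks and the untreated one lies below it. Both intervals include the 21.7% and 19.8% of peaks inside protein-coding genes and lie below the 34.7% and 32.4% of intergenic peaks. Within 100 kb the shares were 63.7% (55 to 71.6%) and 60.7% (51.8 to 68.9%), against 71.7% and 73.1% of peaks inside protein-coding genes, whose median distances were 37 and 38.3 kb. At that range the untreated gene-end peaks lie below the gene-body peaks beyond counting error, and the intervals of the 2 melatonin shares overlap.

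Genes with a peak beside them often had further peaks inside. Of the 125 genes of the melatonin list, 34 also had a melatonin peak in the body (27.2%, 20.2 to 35.6%) and 26 an untreated one (20.8%, 14.6 to 28.7%), where 5.54% and 5.27% of all genes had one. Of the 123 genes of the untreated list, 19 had an untreated peak in the body (15.4%, 10.1 to 22.9%) and 18 a melatonin one (14.6%, 9.46 to 21.9%). Gene length moved with this: the median was 29.6 kb and 25.5 kb for the 2 groups against 17.3 kb over all genes, and its part in the result was not tested. Lrmda, 1037 kb long, had 29 melatonin and 24 untreated peaks in its body, Cpq, a carboxypeptidase gene of 511 kb, had 5 and 14, and Gphn, 467 kb, had 6 and 7.

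The gene lists held few of these genes. Of 292 genes in 14 lists on bone, fat, cartilage and stromal identity, senescence, the clock, H3K36 enzymes, signalling pathways, other cell types and basic cell functions, 5 had a melatonin gene-end peak (1.71%, 0.734 to 3.95%) and 2 an untreated one (0.685%, 0.188 to 2.46%), beside 0.578% and 0.569% of all genes. The untreated share is near its background, and the melatonin interval lies above its own, on 5 genes. In the osteoblast list 1 of 30 genes had such a peak, Tnfsf11 (14.0 normalized tags, 1519 bp downstream), in the untreated list alone. In the senescence list it was 1 of 30, Nfkb1, the NF-kappa-B subunit gene (17.8 normalized tags, 4.30-fold), again untreated. The adipocyte list had Pparg, the master regulator of fat cell formation, in 1 of 17, with a melatonin peak 1808 bp upstream (12.7 normalized tags, 6.26-fold). The clock list had Arntl, which encodes BMAL1, in 1 of 24, with a melatonin peak 428 bp upstream (13 normalized tags, 8.04-fold).

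Among markers of other cell types, 2 of the 17 macrophage and myeloid genes had a melatonin peak (11.8%, 3.29 to 34.3%). That interval lies above the share over all genes, and so does that of each list with 1 such gene. Ptprc, the pan-leukocyte antigen CD45, carried one 99 bp upstream with 23.3 normalized tags (5.22-fold), and Csf1r, the receptor of macrophage colony-stimulating factor, one at 362 bp with 13 (4.60-fold). Gad2, the neuronal glutamate decarboxylase, was 1 of 20 in the neuronal list, with a melatonin peak 166 bp downstream (12.7 normalized tags, 7.83-fold). The lists of stromal progenitor, chondrocyte, H3K36 enzyme and reader, Wnt, BMP and TGF-beta, endothelial, lymphoid and erythroid, cell cycle and housekeeping genes had 0 in both conditions. With 13 to 31 genes each, lists at the background share would hold less than 1 gene, so a count of 0 says nothing about them.

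Gene families defined by symbol gave small numbers too. Of 37 Ccl and Cxcl chemokine genes, 3 had a melatonin peak and 0 an untreated one, which allows a share of up to 8.11%. These were Ccl9 (13.4 normalized tags, 264 bp upstream), Ccl11 (17.3, at 918 bp) and Ccl12 (16.6, 11 bp downstream), all on chromosome 11. The share with melatonin was 8.11% (2.80 to 21.3%), beside 0.578% of all genes. Of 63 Serpin genes 3 and 1 had a peak (4.76%, 1.63 to 13.1%, and 1.59%, 0.281 to 8.46%): Serpina3m, Serpinb1a and Serpinb7 with melatonin, Serpina3n without. Of 83 interleukin and interleukin receptor genes 2 and 1 did so (2.41%, 0.663 to 8.37%, and 1.20%, 0.213 to 6.51%), Il12a and Il18r1 with melatonin and Il18rap, the neighbour of Il18r1, without. Olfactory receptor genes, 1110 in number, had 1 melatonin peak, at Olfr427 (0.0901%, 0.0159 to 0.509%), and 0 untreated, with intervals below the share over all genes. These families are picked from 16 symbol groups, of which the histone group (Hist) matched 0 genes. The melatonin intervals of the chemokine, Serpin and interleukin families all lie above 0.578%. So does that of the Ugt family, on 1 of 22 genes (4.55%, 0.807 to 21.8%). This is thus not particular to any of them, and each rests on at most 3 genes. The 97 ribosomal protein genes had 0 in both lists, which allows up to 3.09%.

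Further families were picked only after their members were seen, and their counts are descriptions. Of 25 prolactin family genes 1 had a melatonin peak and 4 had untreated ones: Prl3d1, Prl2a1 (12.1 normalized tags, 829 bp upstream), Prl7a1 (12.5, 1635 bp upstream) and Prl7c1 (12.9, 861 bp downstream). Their cluster on chromosome 13 gave the densest stretch of gene-end peaks, 6 in the megabase from 27000001 to 28000000, of which 5 were untreated; the whole lists had 10 melatonin and 22 untreated peaks there. On chromosome 19, the megabase with Lipk, Lipm and Acta2, the smooth muscle actin gene, held 4. Of 23 matrix metalloproteinase genes, the neighbours Mmp8 and Mmp27 had melatonin peaks and none an untreated one, which allows up to 13%. Both of those peaks overlap Gm31751, a long noncoding RNA gene. In all, 17 of 124 melatonin (13.7%, 8.74 to 20.9%) and 8 of 122 untreated gene-end peaks (6.56%, 3.36 to 12.4%) overlapped a long noncoding RNA gene, with overlapping intervals. For any gene that is not protein-coding the shares were 13.7% and 8.20% (4.51 to 14.4%). Of all peaks, 13.9% and 13.2% lay in such genes, away from protein-coding genes and their ends. That count leaves out peaks in protein-coding genes, so the shares are not strictly alike, and neither gene-end share is above it beyond counting error.

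Across chromosomes the share of peaks beside gene ends was uneven. It was highest, among chromosomes with over 100 peaks, on chromosome 11, with 14 of 345 melatonin peaks (4.06%, 2.43 to 6.70%) and 9 of 314 untreated ones (2.87%, 1.52 to 5.36%), and on chromosome 6, with 15 of 448 (3.35%, 2.04 to 5.45%) and 13 of 396 (3.28%, 1.93 to 5.53%). Chromosome 10 had the most melatonin peaks, 800, and only 3 gene-end peaks among them (0.375%, 0.128 to 1.10%), with 8 of 853 (0.938%, 0.476 to 1.84%) untreated. The numbers of protein-coding genes were 1609 on chromosome 11, 1126 on chromosome 6 and 1001 on chromosome 10. On the X chromosome 0 of 36 peaks in each list were gene-end peaks, which allows up to 8.33%.

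**Figure D5:**
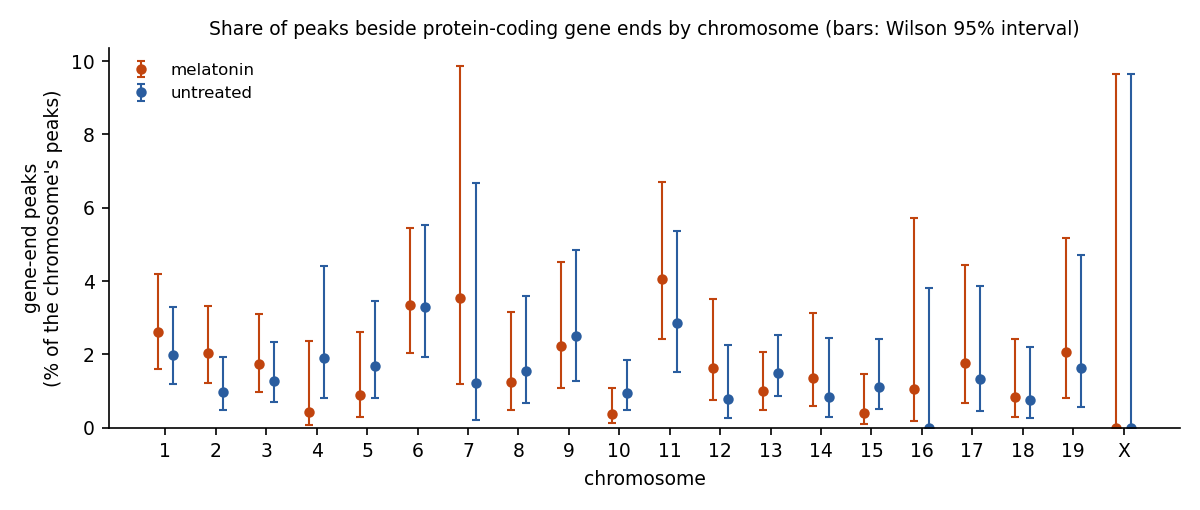
Share of each chromosome's peaks that lie beside a protein-coding gene end (vertical axis, percent, with Wilson 95% intervals), for both lists. Chromosomes 6 and 11 lie highest among those with narrow intervals and chromosome 10 lowest in the melatonin list, and the intervals of the 2 lists overlap on every chromosome.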

How the data were processed

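Peaks were called by the authors with HOMER findPeaks in histone style, each antibody library against its own input without pooling, per the file headers. No source used here gives the version of HOMER. The deposited names of the lists carry the code of the input library, while the headers name the ChIP library whose label the list is assigned to; lists follow the labels and headers, which give the same condition. Windows of 1000 bp needed 18 (melatonin) or 17 (untreated) tags, 4-fold enrichment and a Poisson p of 1e-04 over input, per the file headers. Some deposited ChIP tag counts lie below those numbers, such as 15.5 beside Csf2 in the untreated list. The libraries held 14180076.5 and 13198427.5 tags, of which 1.12% and 1.24% lay in peaks. MACS2 2.1.0, BWA 0.7.13 and Picard 1.126 also stand in the submitters' processing notes. The deposited normalized, ChIP and input tags are signals, the first per 10000000 tags, the others scaled to the shallower library; the deposited findPeaks score was not used, the authors' fold is a ratio of ChIP to input, and the deposited p-value is unadjusted. These values describe or filter peaks within a list.

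Those notes name mm39, yet an untreated peak ends at 159805034 on chromosome 3, past that chromosome's end in mm39 and in mm9. Coordinates were read as GRCm38 and compared with GRCm38.p6 RefSeq genes on 20 chromosomes; strand came from the promoter table, for 17274 of 21631 protein-coding genes. A peak was assigned to a gene body first and to a 2 kb gene end second. No genome sequence, repeat or gap annotation was used. Python 3.11.15, numpy 2.4.6, pandas 2.3.3 and scipy 1.17.1 computed counts with 95% intervals: Wilson for shares, exact Poisson for densities and exact binomial for ratios of densities. Peaks of a library are not replicates, and reads that lack molecular identifiers may repeat 1 molecule. A share at 0 is given the limit that 3 counts allow. The assignment was tested on simulated peaks.

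The members, gene lists and families were chosen with earlier results of these data known. Named are, without predicted genes, the 10 highest folds and 5 smallest gaps per list, genes in both lists or with most peaks, gene list members, peaks near 2 genes, the 3 widest per list, and 3 peaks on each side of the limit, predicted genes included there. Alternatives were other flanks, p and fold thresholds, equal list sizes, no predicted genes, the peak midpoint, and other overlap rules. The distance profile, its split by gene end and CpG class, and its thresholds were added after seeing the data.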

Additional observations from a re-analysis of the deposited data

How the results depend on the processing

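With a 1 kb flank the share of gene-end peaks was 0.662% (melatonin) and 0.478% (untreated), with 51 and 40 genes and 3 in both lists. With 5 kb it was 4.84% and 4.22%, with 389 and 364 genes and 43 in both. When peaks needed 6-fold enrichment, the melatonin share was 1.99%, 48 and 29 genes had a peak, 0 were in both lists, and 0% of 46 and 0% of 28 gene-end peaks overlapped across lists, which allows up to 6.52% and 10.7%. Counting only midpoints in the flank gave 1.23% and 1.08%. These are 18 of 48 alternative values; the other 30 stayed within the interval of the reported value or within 1.5 times its count.

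In the distance profile, chosen after seeing the data, the density from 1.5 to 2.5 kb outside 5′ ends was 3.57 times (1.37 to 10.9) and 4.88 times (1.34 to 26.7) that of the first kb at 6-fold or more, and 4.28 and 4.92 times at a p of 1e-05. No paired analysis was possible because each condition had 1 library. Depth limits the results to counting error over about 120 peaks a list, and, outside 5′ ends up to 2.5 kb, to 4 to 24 peaks a distance step, with fewer in some steps inside genes or by CpG class.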
